A study of Mus musculus with 12 samples.

Results

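The transcription factors of the choice between the CD4 helper and the CD8 cytotoxic lineage were followed in RNA-seq of LN T cells. They are 10 genes, *Zbtb7b* (which encodes ThPOK), *Zbtb7a*, *Runx1*, *Runx2*, *Runx3*, *Cbfb*, *Gata3*, *Tox*, *Myb* and *Patz1*, taken by symbol from the 49585 genes of the deposited table. All 10 were found once, and all 10 were among the 13118 genes with enough counts to be tested. The data came from 4 groups of 3 samples, 12 in all: the CD4+ cells and the CD8+ cells of B6 (strain C57BL/6), and from CD8Dual mice, which the labels call 8in4, the CD8.1 cells and the CD8.2 cells. The mice were males of 6 to 10 weeks, each sample was RNA from pooled sorted CD62L+TCRβ+ cells, and the methods add that the sort was CD44−. For the study as a whole, the methods state that mice of both sexes were used unless mentioned otherwise. In CD8Dual mice the *Cd4* locus was changed to encode a CD8 co-receptor made with the CD8α.1 allele in place of CD4, while the intact *Cd8* locus encodes the co-receptor with CD8α.2. CD8.1 T cells thus carry the co-receptor of the *Cd4* locus and CD8.2 T cells that of the *Cd8* locus. B6 CD4+ and CD8.1 T cells are called helper cells here, and B6 CD8+ and CD8.2 T cells cytotoxic cells. No label says that the samples of a group came from separate mice, so P values measure the spread between these samples only.

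ThPOK is the zinc finger repressor that commits thymocytes to the helper fate, and Runx3 is the factor of the cytotoxic fate, where Runx proteins bind the ThPOK silencer and the *Cd4* silencer with their partner Cbfβ. Gata3, Tox and Myb act upstream of ThPOK in thymocytes that will become CD4+ T cells. LRF, the product of *Zbtb7a*, is the closest relative of ThPOK and can take over part of its work, and MAZR, the product of *Patz1*, represses ThPOK and *Cd8* genes in thymocytes. These roles are background from studies of the thymus, whereas the cells here were mature.

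Levels are given as CPM, each sample's counts brought to the same total after TMM normalization, and the raw total was 18667474 to 37110502 counts per sample. At that depth 3 counts, the smallest level taken as detectable, correspond to 0.0875 to 0.167 CPM, a limit that covers counting error only. A gene was called where the adjusted P of edgeR's quasi-likelihood test was under 0.05, with Benjamini-Hochberg adjustment over the 13118 genes. The DEG definition of the study, a fold change of more than 5 with an unadjusted P under 0.05, is given beside it. It was applied here to edgeR's fold changes and P values, so the resulting numbers are not those of the study. The sort was checked on the co-receptor genes. The mean of *Cd4* was 969 CPM for B6 CD4+, 0.244 for B6 CD8+, 49.7 for CD8.1 and 1.47 for CD8.2 T cells. *Cd8a* averaged 1.17, 1423, 192 and 1460 CPM in the same order. A pair of samples stood apart from the others of their group. For CD8.2 replicate 3, the deepest sample, chi-square per gene was 83.7 and 55.1 against the other CD8.2 samples, which were at 13.0 from each other. For CD8.1 replicate 1 it was 30.4 and 31.7, where the other two were at 8.48. Calls of a factor that change without either of them are also given without it.

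In B6 mice 7 of the 10 factors were called between CD4+ and CD8+ T cells. *Zbtb7b*, *Runx1*, *Gata3* and *Tox* were higher in CD4+ T cells, 4 of 10 where 11.4% of all tested genes were called in that direction. *Runx2*, *Runx3* and *Zbtb7a* were lower, 3 of 10 where 11.7% of all tested genes were. In CD8Dual mice the same 4 genes were higher on the CD8.1 side, beside 14.9% of all tested genes, and the same 3 were lower, beside 13.8%. *Cbfb*, *Myb* and *Patz1* were called in neither strain. The DEG definition was met by 2 factors in B6 mice (*Zbtb7b* and *Runx2*), beside 3.29% of all tested genes, and by 1 in CD8Dual mice (*Zbtb7b*), beside 3.32%. The median log2 fold change of the 10 factors was 0.22 in B6 mice and 0.028 in CD8Dual mice, beside −0.0011 and −0.0047 over all tested genes.

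**Figure D1:**
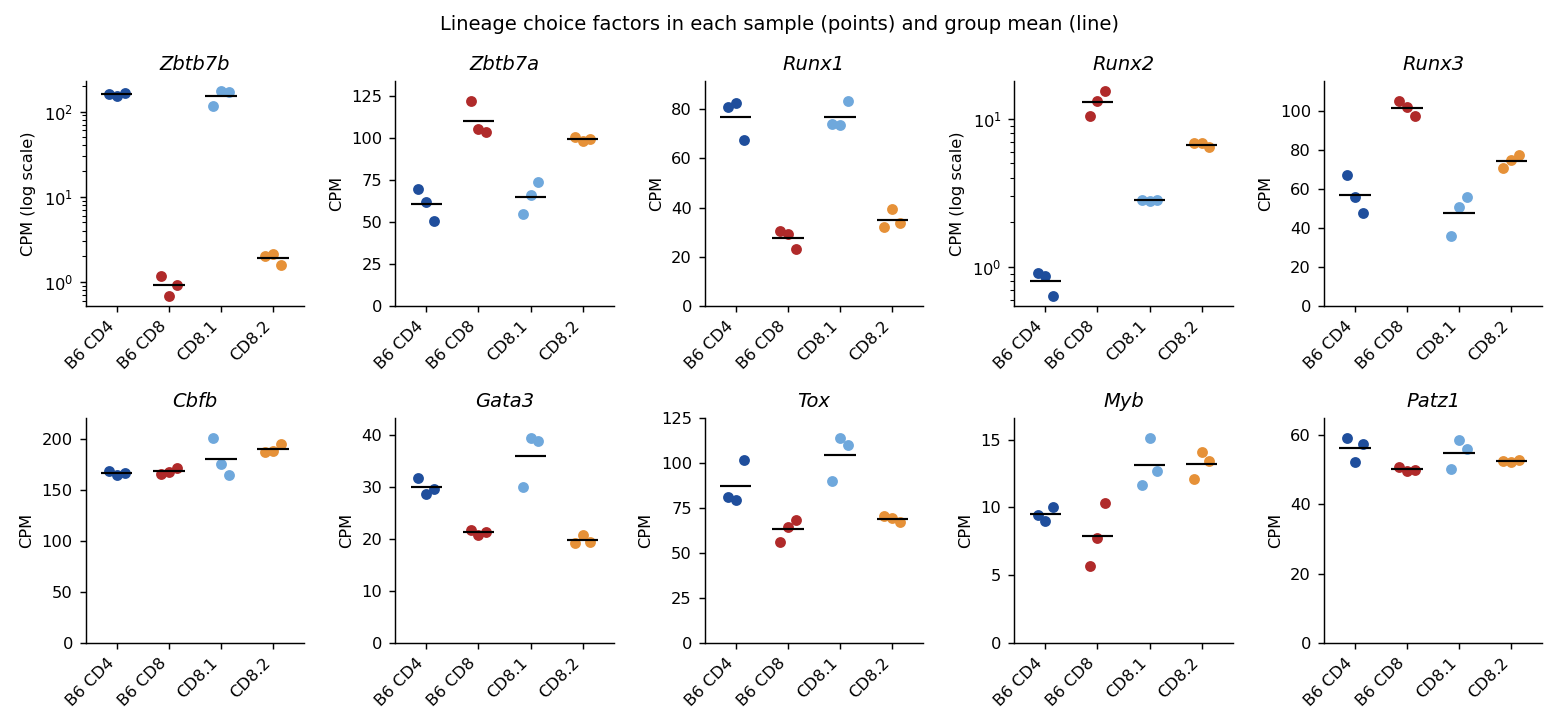
Expression of the 10 factors in each of the 12 samples (points, CPM) with the mean of each group (line). The axes for *Zbtb7b* and *Runx2* are logarithmic and the others start at 0. *Zbtb7b* splits the groups into samples at 117 to 173 CPM and samples at 0.691 to 2.11 CPM, and *Runx2* takes a separate level in each of the 4 groups.

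*Zbtb7b* (ENSMUSG00000028042.15) lies on the minus strand of chromosome 3, bases 89377644 to 89394776 (GRCm38, GENCODE M21). Its level was 159, 154 and 164 CPM in the 3 B6 CD4+ samples and 1.19, 0.691 and 0.914 CPM in the B6 CD8+ samples. In CD8Dual mice it was 117, 173 and 172 CPM in CD8.1 T cells and 2.00, 2.11 and 1.60 CPM in CD8.2 T cells. Every helper sample was far above every cytotoxic sample in both strains. The log2 fold change was 7.42 (SE 0.197, 171-fold, edgeR adjusted P = 3.84e-13) in B6 mice and 6.36 (SE 0.180, 82.4-fold, edgeR adjusted P = 1.78e-12) in CD8Dual mice. CD8.1 and B6 CD4+ T cells were neighbours in level, and their difference of −0.04 on the log2 scale (95% interval −0.31 to 0.22) was not called. The difference between the strains in the change of *Zbtb7b*, −1.05, was not called either (edgeR adjusted P = 0.104), but was with DESeq2 (adjusted P = 0.0127). It was also called by edgeR without CD8.1 replicate 1 (−0.90, adjusted P = 0.0123) and without the filter on low counts (−1.07, adjusted P = 1.84e-04). The antisense gene *Gm15417* overlaps *Zbtb7b*, and since no use of strand in counting is stated, their reads may not be fully apart. It averaged 3.72 CPM for B6 CD4+, 0.131 for B6 CD8+, 2.64 for CD8.1 and 0.309 for CD8.2 T cells, far below *Zbtb7b* in the helper groups.

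At the low end of its range *Zbtb7b* also differed between the cytotoxic groups. The samples held 19 to 29 counts in B6 CD8+ T cells and 38 to 55 counts in CD8.2 T cells, above the limit of 3 counts, and the CPM values did not overlap. The log2 difference of CD8.2 from B6 CD8+ T cells was 1.01 (SE 0.270, edgeR adjusted P = 0.0335). This call was lost without B6 CD8 replicate 2 (edgeR adjusted P = 0.149), B6 CD8 replicate 3 (0.0713), CD8.2 replicate 1 (0.0891) or CD8.2 replicate 2 (0.0981), and with limma-voom (adjusted P = 0.191). Some markers of helper and regulatory T cells moved the same way. *Cd4*, whose locus is altered in CD8Dual mice, went from 0.244 to 1.47 CPM on average (log2 difference 2.65, edgeR adjusted P = 6.43e-05) and met the DEG definition. Of the 6 markers of regulatory T cells *Foxp3* (0.333 to 1.24 CPM) and *Ctla4* (1.16 to 4.04 CPM) were called. The other 4 were not, with *Il2ra* (1.08 to 1.73 CPM) and *Tnfrsf4* (0.608 to 1.06 CPM) higher. *Ikzf2* (4.46 to 2.45 CPM) and *Tnfrsf18* (50.1 to 46.1 CPM) were lower. The 6 markers of regulatory T cells summed to 55.9 to 60.2 CPM in B6 CD8+ and 55.1 to 57.5 CPM in CD8.2 T cells. Most of that sum was *Tnfrsf18*, so it hardly reflects the rise of *Foxp3* and *Ctla4*. The part of such cells in the result was not tested. In bulk RNA a few more cells with ThPOK and slightly more ThPOK RNA in each cell cannot be told apart.

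*Zbtb7a* (ENSMUSG00000035011.15, chromosome 10, 81135220 to 81152995, plus strand), the paralogue, ran the other way. It was at 69.4, 61.6 and 50.4 CPM in B6 CD4+ T cells and 122, 105 and 103 CPM in B6 CD8+ T cells. CD8.1 T cells had 54.5, 65.8 and 73.7 CPM and CD8.2 T cells 100.4, 98.4 and 99.5 CPM. No sample of a CD4+ or CD8.1 group reached any CD8+ or CD8.2 sample. Its log2 fold change was −0.86 (SE 0.119, edgeR adjusted P = 5.59e-05) in B6 mice and −0.62 (SE 0.119, edgeR adjusted P = 0.00113) in CD8Dual mice. LRF transcripts, unlike those of ThPOK, were abundant on both sides. Per kilobase of annotated exon, *Zbtb7b* averaged 28.4 CPM in B6 CD4+ T cells where *Zbtb7a* averaged 8.89, and 0.166 in B6 CD8+ T cells where *Zbtb7a* averaged 16.2. The corresponding levels were 27.6 and 9.50 CPM per kilobase in CD8.1 T cells and 0.341 and 14.6 in CD8.2 T cells.

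Runx1, Runx2 and Runx3 share a DNA-binding domain and their partner Cbfβ, and each gene has a distal and a proximal promoter, of which the distal one makes the Runx3 form of cytotoxic cells. The longest run of bases common to a promoter of all 3 genes was searched for in RefSeq promoters (GRCm38.p6, 250 bases before to 50 after each start). It has 18 bases and holds the Runx motif ACCACA at 2 places. It is shown here in capitals within 30 bases, 5′ to 3′ on each gene's own strand, because it links *Runx1*, *Runx2* and *Runx3*, whose transcripts moved in different directions. The windows are chr16:92826025-92826054 (minus), chr17:44814583-44814612 (minus) and chr4:135120503-135120532 (plus).
Runx1: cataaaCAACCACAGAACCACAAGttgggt
Runx2: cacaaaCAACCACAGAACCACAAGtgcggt
Runx3: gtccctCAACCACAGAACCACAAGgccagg
The run starts 26 bases after the annotated start in *Runx1*, 21 after it in *Runx2* and 136 before it in *Runx3*. Of the 32851 promoters in the table, 4 (0.0122%) hold it on either strand, those of the 3 Runx genes and of *Gm16225*.

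The table held 1 to 2 promoters for each of 9 factors (13 in all) and none for *Tox*. The motif ACCACA, read on either strand, was in 4 of these 13 promoters, beside 16.8% of all promoters, and the 4 were the Runx promoters above and 1 of *Zbtb7b*. That site of *Zbtb7b*, at chr3:89387743-89387772 on the minus strand and 89 bases before the start, is shown with the motif in capitals.
Zbtb7b: ctggcgaggaacTGTGGTatgtgagtgggt
The GATA motif AGATAA, read on either strand, was in the promoter of *Zbtb7a* alone among the 13, at 2 places, beside 11.2% of all promoters. Such matches are letters in a window, and whether proteins bind there was not tested.

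*Runx3* (ENSMUSG00000070691.10, chromosome 4, 135120652 to 135177990, plus strand) was at 67.3, 55.8 and 47.8 CPM in B6 CD4+ T cells and 105, 102 and 97.5 CPM in B6 CD8+ T cells. CD8Dual samples were at 35.9, 50.6 and 56.0 CPM in CD8.1 T cells and 70.6, 74.7 and 77.3 CPM in CD8.2 T cells. The lineages did not overlap in either strain, yet *Runx3* RNA was far from absent in helper cells. On the log2 scale the change was −0.83 (SE 0.138, edgeR adjusted P = 3.13e-04) in B6 mice and −0.64 (SE 0.139, edgeR adjusted P = 0.00278) in CD8Dual mice. One value per gene was deposited, so transcripts from the distal and the proximal promoter of *Runx3* cannot be told apart. CD8.2 T cells lay between B6 CD8+ and B6 CD4+ T cells, overlapping neither, but their log2 differences of −0.45 from the former (edgeR adjusted P = 0.0556) and 0.38 from the latter (edgeR adjusted P = 0.0528) were not called. Both were called with limma-voom, at adjusted P values of 0.0450 and 0.0408, and with DESeq2, at 0.0196 and 0.0360. Without CD8.1 replicate 1, which is in neither comparison, edgeR called both as well (adjusted P = 0.00765 and 0.00737).

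*Runx1* (ENSMUSG00000022952.16, chromosome 16, 92601466 to 92826149, minus strand) was the reverse of *Runx3*. It was at 80.7, 82.3 and 67.3 CPM in B6 CD4+ T cells and 30.5, 29.1 and 23.3 CPM in B6 CD8+ T cells. In CD8Dual mice, CD8.1 T cells had 73.9, 73.6 and 83.1 CPM and CD8.2 T cells 32.2, 39.3 and 33.7 CPM. Helper and cytotoxic samples did not overlap. This gave a log2 fold change of 1.47 (SE 0.115, edgeR adjusted P = 1.06e-07) in B6 mice and 1.13 (SE 0.113, edgeR adjusted P = 2.36e-06) in CD8Dual mice. CD8.1 T cells did not depart from B6 CD4+ T cells beyond their spread (log2 difference 0.0016, 95% interval −0.23 to 0.24). All CD8.2 samples were above all B6 CD8+ samples, but the difference of 0.34 was not called (edgeR adjusted P = 0.0825). Of 19 alternatives 17 left this difference uncalled. It was called by edgeR with only the groups compared (adjusted P = 0.0367) and without the filter on low counts (adjusted P = 0.0177).

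*Runx2* (ENSMUSG00000039153.16, chromosome 17, 44495987 to 44814797, minus strand) is best known as the factor of bone formation. Its change between helper and cytotoxic cells differed more between the strains than that of any other of the 10 factors. Its level was 0.910, 0.862 and 0.638 CPM in B6 CD4+ T cells, which is 15 to 20 counts, and 10.5, 13.3 and 15.4 CPM in B6 CD8+ T cells. In CD8Dual mice it was 2.82, 2.79 and 2.85 CPM in CD8.1 T cells and 6.85, 6.83 and 6.42 CPM in CD8.2 T cells. The 4 groups thus held 4 levels without overlap, and all neighbours in that order differed. The log2 fold change of helper against cytotoxic cells was −4.02 in B6 mice (SE 0.195, 16.2-fold, edgeR adjusted P = 3.95e-10) and −1.25 in CD8Dual mice (SE 0.169, 2.37-fold, edgeR adjusted P = 5.28e-05). The gap narrowed from both ends. CD8.1 T cells were above B6 CD4+ T cells by 1.81 (SE 0.212, 3.50-fold, edgeR adjusted P = 1.15e-04), and CD8.2 T cells were below B6 CD8+ T cells by 0.96 (log2 difference −0.96, SE 0.153, 1.95-fold, edgeR adjusted P = 0.00139).

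The difference between the strains in this change was 2.77 for *Runx2* (SE 0.262, edgeR adjusted P = 1.93e-05). It was the only 1 of the 10 factors called in that test (3 were without CD8.1 replicate 1), beside 1.58% of all tested genes in the same direction and 0.29% in the other, and the only 1 to meet the DEG definition in it, beside 1.16%. Under all 18 alternatives tried for it at an adjusted P under 0.05 it stayed called, at 2.61 to 2.89. The coding gene *Supt3* overlaps *Runx2* on the other strand and was at 8.57 CPM for B6 CD4+, 11.7 for B6 CD8+, 11.3 for CD8.1 and 10.7 for CD8.2 T cells, which is not the order of *Runx2*. The antisense gene *Runx2os1* averaged 0.527 CPM in B6 CD8+ and 0.329 in CD8.2 T cells, and 0.0435 and 0.0147 in B6 CD4+ and CD8.1 T cells. The summed level of *Eomes*, *Cxcr3* and *Il2rb*, markers of innate memory CD8+ T cells, followed the order of *Runx2*: it was 635 to 741 CPM in B6 CD8+, 490 to 517 in CD8.2, 246 to 287 in CD8.1 and 92.8 to 123 in B6 CD4+ T cells. Between the cytotoxic groups *Il2rb* differed (−0.58, edgeR adjusted P = 0.00153), while *Eomes* (−0.14) and *Cxcr3* (−0.12) were not called. The study describes such cells in CD8Dual mice as CD44hi, and its methods give the sort as CD44−. *Cd44* RNA averaged 35.1 CPM for B6 CD4+, 51.0 for B6 CD8+, 72.0 for CD8.1 and 55.2 for CD8.2 T cells. The part of innate memory cells in the *Runx2* result was not tested.

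*Cbfb* (ENSMUSG00000031885.14, chromosome 8, 105170674 to 105217989, plus strand), the shared partner of the Runx proteins, was the most abundant factor per length in every group. It was at 164 to 168 CPM for B6 CD4+, 165 to 171 for B6 CD8+, 165 to 200.4 for CD8.1 and 187 to 195 for CD8.2 T cells. The groups overlapped within both strains. On the log2 scale its change was −0.016 in B6 mice (95% interval −0.17 to 0.14) and −0.08 in CD8Dual mice (95% interval −0.23 to 0.08). Without CD8.1 replicate 1, which held the highest value of its group, the difference in CD8Dual mice was −0.18 and was called (edgeR adjusted P = 0.0250). CD8.2 T cells exceeded B6 CD8+ T cells by 0.18 (edgeR adjusted P = 0.149) and B6 CD4+ T cells by 0.20 (edgeR adjusted P = 0.0611), neither of which was called. Without CD8.1 replicate 1, which is in neither comparison, edgeR called both (adjusted P = 0.0291 and 0.00784). It also called both with only the groups compared (adjusted P = 0.0249 in each).

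Taken per kilobase of exon, the share of each Runx gene in the family did not overlap between the lineages of either strain. *Runx3* made up 63.6% ± 2.48 (SD, n = 3) of summed Runx transcripts for B6 CD4+, 84.3% ± 0.545 for B6 CD8+, 58.2% ± 4.82 for CD8.1 and 80.1% ± 1.36 for CD8.2 T cells. *Runx1* made up 35.9% ± 2.47, 9.52% ± 1.01, 39.8% ± 4.53 and 15.8% ± 1.30 in the same order. The share of *Runx2* was 0.507% ± 0.0327, 6.17% ± 1.36, 2.00% ± 0.304 and 4.11% ± 0.296. The sum of all 3 genes was 15.2 to 20.3 CPM per kilobase for B6 CD4+, 23.2 to 24.7 for B6 CD8+, 13.6 to 18.4 for CD8.1 and 17.6 to 18.98 for CD8.2 T cells. Only B6 CD8+ T cells stood clear of the other groups in the sum. The log2 ratio of *Runx3* to *Runx1* averaged 0.83 for B6 CD4+, 3.15 for B6 CD8+, 0.55 for CD8.1 and 2.35 for CD8.2 T cells. These shares depend on the length taken for each gene, and with the longest annotated transcript in place of all exons the ratio averaged 0.15, 2.48, −0.12 and 1.68. With that length the CD8.1 samples were at −0.45, 0.054 and 0.024, and without CD8.1 replicate 1 their mean was 0.039. A change of length moves this ratio by the same amount in every sample. It therefore cannot change the order of the group means, and that order is no check of the result.

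**Figure D2:**
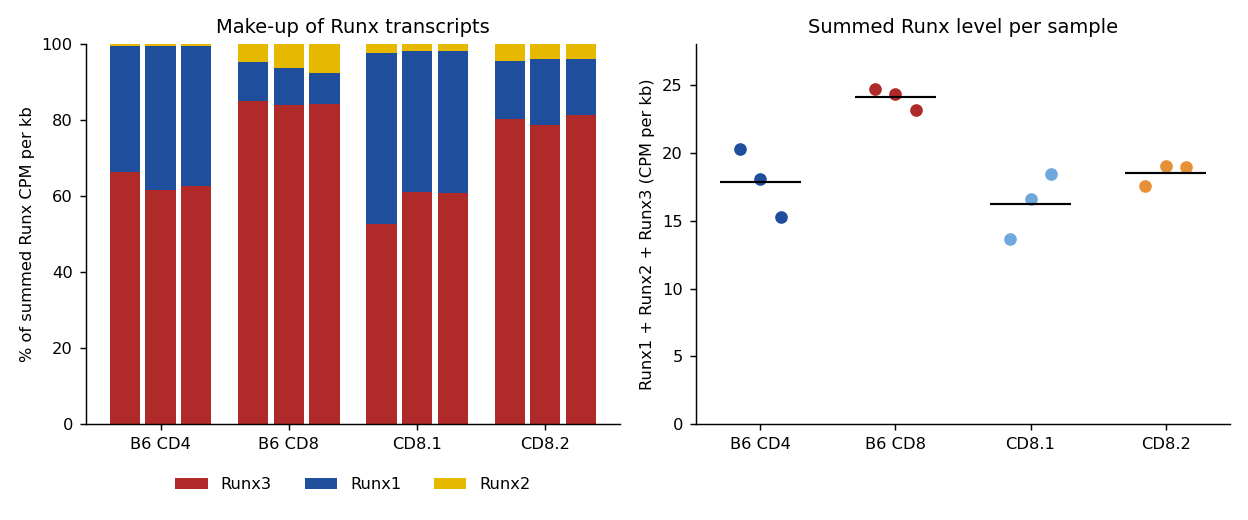
Left, share of *Runx3*, *Runx1* and *Runx2* in their summed CPM per kilobase, 1 bar per sample (3 per group). Right, the sum itself in each sample (points) with the group mean (line). The share of *Runx1* is 8.37% to 17.2% in the CD8+ and CD8.2 samples and 33.1% to 45.1% in the CD4+ and CD8.1 samples.

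*Gata3* (ENSMUSG00000015619.10, chromosome 2, 9857078 to 9890034, minus strand) was at 31.7, 28.6 and 29.6 CPM in B6 CD4+ T cells and 21.6, 20.8 and 21.4 CPM in B6 CD8+ T cells. CD8.1 T cells had 29.98, 39.4 and 38.8 CPM and CD8.2 T cells 19.3, 20.7 and 19.4 CPM. Helper samples were above all cytotoxic samples. The change on the log2 scale was 0.50 (SE 0.101, edgeR adjusted P = 0.00175) in B6 mice and 0.87 (SE 0.101, edgeR adjusted P = 1.16e-05) in CD8Dual mice. Over all samples the excess of CD8.1 over B6 CD4+ T cells, 0.27, was not called (edgeR adjusted P = 0.0889), nor was the difference between the strains, 0.37 (edgeR adjusted P = 0.267). CD8.1 replicate 1 was the lowest of its group, and without it they were 0.37 (edgeR adjusted P = 0.00369) and 0.48 (edgeR adjusted P = 0.0103), and both were called.

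*Tox* (ENSMUSG00000041272.11, chromosome 4, 6686353 to 6991557, minus strand), which encodes an HMG box factor needed for CD4+ T cells to form, was at 81.0, 79.4 and 101.6 CPM in B6 CD4+ T cells and 56.1, 64.3 and 68.5 CPM in B6 CD8+ T cells. In CD8Dual mice it was at 90.2, 114 and 109.7 CPM in CD8.1 T cells and 70.3, 69.3 and 67.1 CPM in CD8.2 T cells. The lineages did not overlap, while the groups of the same lineage did overlap between strains. The log2 fold change was 0.47 (SE 0.110, edgeR adjusted P = 0.00498) in B6 mice and 0.60 (SE 0.110, edgeR adjusted P = 7.63e-04) in CD8Dual mice. CD8.1 T cells exceeded B6 CD4+ T cells by 0.26, which was not called (edgeR adjusted P = 0.131), but was without CD8.1 replicate 1 (0.34, edgeR adjusted P = 0.0284) or without B6 CD4 replicate 3 (0.36, edgeR adjusted P = 0.0337). Markers of regulatory T cells were also higher in CD8.1 T cells, where their 6 genes summed to 409 to 472 CPM, than in B6 CD4+ T cells, where they summed to 157 to 233 CPM. All 6 of these markers were called in that comparison, and their part in the values of *Gata3*, *Tox* and *Runx2* was not tested.

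*Myb* (ENSMUSG00000019982.15, chromosome 10, 21124935 to 21160984, minus strand) had levels that separated by strain, and was not called between the lineages of either strain. It was at 9.46, 9.01 and 10.04 CPM for B6 CD4+, 5.65, 7.71 and 10.3 for B6 CD8+, 11.6, 15.1 and 12.7 for CD8.1 and 12.1, 14.1 and 13.5 CPM for CD8.2 T cells. Every CD8Dual sample was above every B6 sample. Within a strain the log2 fold change was 0.27 in B6 mice (95% interval −0.10 to 0.65) and −0.0061 in CD8Dual mice (95% interval −0.36 to 0.35). CD8.2 T cells exceeded B6 CD8+ T cells by 0.75 (SE 0.173, edgeR adjusted P = 0.0159), and CD8.1 exceeded B6 CD4+ T cells by 0.47, which was not called (SE 0.172, edgeR adjusted P = 0.0853). The first call was lost without B6 CD8 replicate 1 (edgeR adjusted P = 0.0651), B6 CD8 replicate 2 (0.0695), CD8.2 replicate 2 (0.0664) or CD8.2 replicate 3 (0.0610). Without CD8.1 replicate 1 the second was called (0.54, edgeR adjusted P = 0.0486). It was also called without the filter on low counts (edgeR adjusted P = 0.0243) and without B6 CD8 replicate 1 (0.0475) or B6 CD8 replicate 3 (0.0434), which are not in that comparison. Without B6 CD8 replicate 3, *Myb* was also called between the B6 groups (0.50, edgeR adjusted P = 0.0384). Of the markers of immature thymocytes, where *Myb* is abundant, *Rag2* was at 0 in all samples, and *Rag1* and *Ptcra* held at most 2 counts in any sample. The sum of the 5 markers came nearly all from *Dntt* and *Cd24a*. It was 18.4 to 19.4 CPM for B6 CD4+, 6.30 to 10.5 for B6 CD8+, 19.9 to 25.7 for CD8.1 and 15.6 to 18.8 for CD8.2 T cells.

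The samples of *Patz1* (ENSMUSG00000020453.17, chromosome 11, 3288874 to 3309083, plus strand) spanned 52.2 to 59.2 CPM for B6 CD4+, 49.7 to 50.9 for B6 CD8+, 50.1 to 58.5 for CD8.1 and 52.2 to 53.0 for CD8.2 T cells. The B6 groups did not overlap, but the log2 fold change of 0.16 (95% interval −0.00092 to 0.33) was not called (edgeR adjusted P = 0.154), and in CD8Dual mice it was 0.06 (95% interval −0.10 to 0.23).

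**Figure D3:**
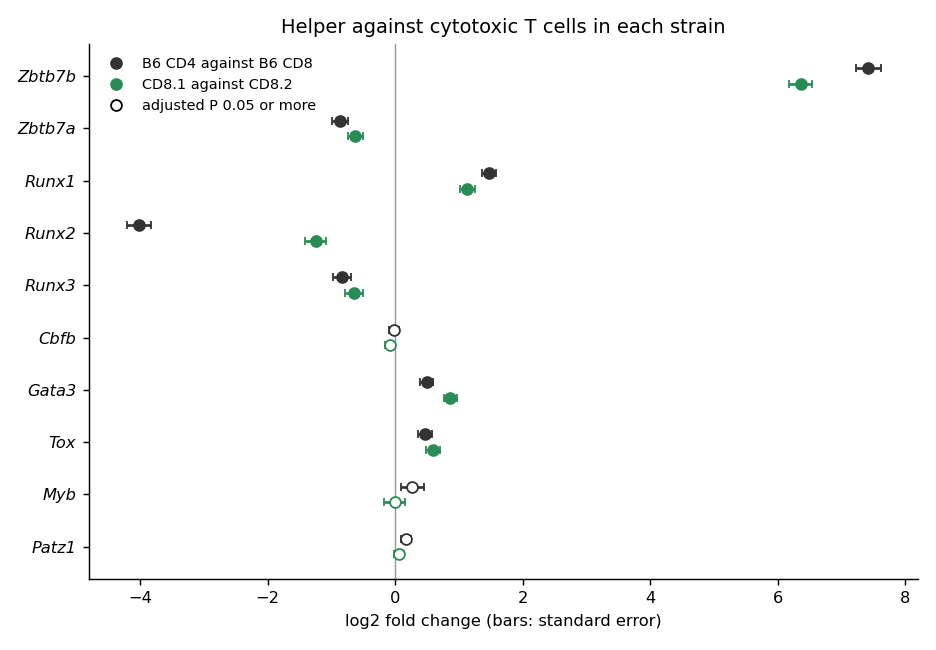
Log2 fold change of each factor for B6 CD4+ against CD8+ (black) and CD8.1 against CD8.2 (green), with standard errors. Filled points had an adjusted P under 0.05. The 7 called factors keep their direction in both strains, and *Runx2* shows the widest gap between them, −4.02 against −1.25.

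Against the B6 group of its own lineage, CD8.1 T cells differed in 1 factor of 10, *Runx2*, which was higher. In that comparison 6.94% of all tested genes were called higher, 5.82% lower, and 0.61% met the DEG definition, which no factor did, the largest fold change being 3.50. Between the cytotoxic groups 3 factors differed, with *Zbtb7b* and *Myb* higher beside 3.29% of all tested genes and *Runx2* lower beside 4.66%. No factor met the DEG definition there either, beside 0.579% of all tested genes, and the largest fold change was 2.01. Without CD8.1 replicate 1 these counts of 1 and 3 factors became 4 and 5, and without CD8.2 replicate 3 they became 1 and 2.

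**Figure D4:**
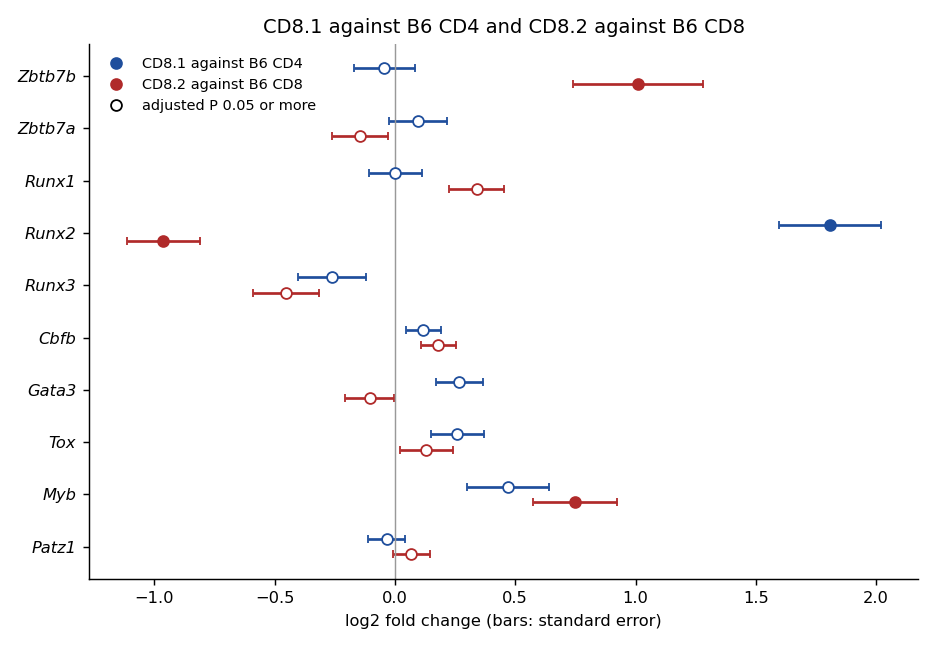
Log2 difference of each factor of CD8.1 from B6 CD4+ T cells (blue) and of CD8.2 from B6 CD8+ T cells (red), with standard errors. Filled points had an adjusted P under 0.05. *Runx2* is the factor called in both, at 1.81 and −0.96, in opposite directions.

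The remaining pairs of groups set cells of different lineage and strain side by side. Set against B6 CD8+ T cells, with which they share the kind of co-receptor, CD8.1 T cells differed in 8 factors. *Zbtb7b*, *Runx1*, *Gata3*, *Tox* and *Myb* were higher beside 19.6% of all tested genes, *Runx2*, *Runx3* and *Zbtb7a* were lower beside 19.5%, and *Zbtb7b* met the DEG definition beside 4.06%. The log2 differences were 7.37 for *Zbtb7b*, −2.21 for *Runx2*, 1.47 for *Runx1* and −1.10 for *Runx3*, and edgeR's adjusted P values were 7.54e-13, 6.84e-08, 1.03e-07 and 1.97e-05. CD8.2 T cells differed from B6 CD4+ T cells in 6 factors. *Runx2* (3.05) and *Zbtb7a* (0.72) were higher beside 13.3% of all tested genes, *Zbtb7b*, *Runx1*, *Gata3* and *Tox* were lower beside 13.6%, and *Zbtb7b* and *Runx2* met the DEG definition beside 2.73%. The call of *Tox* there (−0.34, edgeR adjusted P = 0.0307) was lost without any 1 of B6 CD4 replicate 3 (edgeR adjusted P = 0.112), CD8.2 replicate 1 (0.0670), CD8.2 replicate 2 (0.0742) or CD8.2 replicate 3 (0.10). *Myb* was close to the threshold and not called (0.48, edgeR adjusted P = 0.0514). Of 19 alternatives 10 left it uncalled, while edgeR called it with the replicate number as a block (0.47, adjusted P = 0.0420), without the filter on low counts (0.00935), with only the groups compared (0.00733) and without any 1 of 4 samples (0.0199 to 0.0468), as did limma-voom (0.0408) and DESeq2 (0.0345).

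Other genes of lineage choice were counted from lists of E proteins, HMG box factors, zinc finger factors of T cell identity and co-repressors. Of 38 listed genes 37 were tested. In B6 mice 9 were higher in CD4+ T cells and 7 lower, beside the 11.4% and 11.7% of all tested genes. In CD8Dual mice 10 were higher in CD8.1 T cells and 5 lower, beside 14.9% and 13.8%, so that the lower count was near the background. Both strains called 12 of them, all in the same direction, 8 higher where 8.13% of all tested genes were and 4 lower where 7.69% were. In the test of the difference between the strains edgeR called 0 of the 37 (6 had an unadjusted P under 0.05), limma-voom 0 (5 unadjusted) and DESeq2 1, *Ikzf3* (7 unadjusted). Since 1.58% of all tested genes were called higher and 0.29% lower in that test, the count of 0 is near the background. Among the HMG box and E protein genes, *Sox4* rose by 1.39 in B6 mice (edgeR adjusted P = 1.72e-05) and 1.78 in CD8Dual mice (edgeR adjusted P = 2.33e-06), and *Tcf4* by 1.54 (edgeR adjusted P = 2.00e-04) and 0.78 (edgeR adjusted P = 0.0217). *Tcf12*, which encodes the E protein HEB, fell by 0.53 (edgeR adjusted P = 1.08e-04) and 0.46 (edgeR adjusted P = 4.46e-04). *Tox2*, the relative of *Tox*, was at 1.48 CPM ± 0.313 (SD, n = 3) in B6 CD4+ and 2.95 ± 0.622 in CD8.1 T cells, with 1 to 3 counts per sample in B6 CD8+ and 7 to 11 in CD8.2 T cells. Of the zinc finger and related factors, *Bcl6* (0.74 and 0.61), *Ets1* (0.65 and 0.37) and *Bach2* (0.56 and 0.29) rose in both strains, with edgeR adjusted P values of 2.31e-04 to 0.0444, whereas *Ikzf3*, which encodes Aiolos, fell by 0.90 (edgeR adjusted P = 2.17e-06) and 0.44 (edgeR adjusted P = 0.00195) and *Gfi1* fell by 0.67 (edgeR adjusted P = 0.00110) and 0.42 (edgeR adjusted P = 0.0194). Of the co-repressors, *Tle4* of the Groucho family, which binds Runx proteins, fell by 0.49 (edgeR adjusted P = 9.39e-04) and 0.62 (edgeR adjusted P = 1.36e-04).

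**Figure D5:**
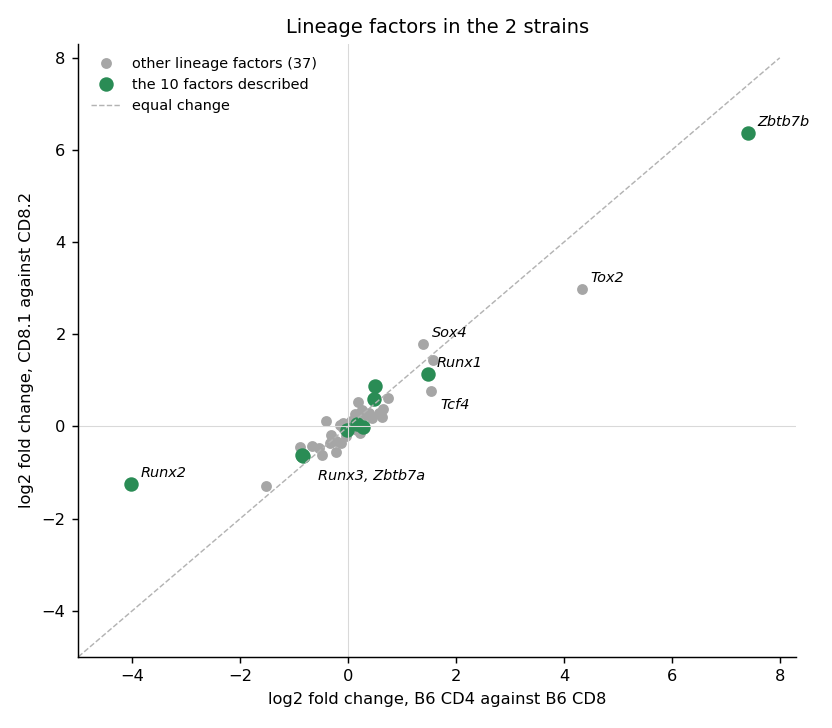
Log2 fold change in CD8Dual mice (CD8.1 against CD8.2) against that in B6 mice (CD4+ against CD8+) for the 10 factors (green) and 37 other lineage factors (grey). The dashed line marks equal change. *Zbtb7b* lies far out at 7.42 and 6.36, and *Runx2* lies off the line at −4.02 and −1.25. The fitted value of *Tox2* in B6 mice rests on 1 to 3 counts per CD8+ sample.

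The genes whose pattern over the 12 samples was most like that of a factor were found by the smallest root mean square difference of log2 CPM, each gene centred on its own mean. For *Zbtb7b* the closest was *Cd40lg* (difference 0.352), which encodes CD40 ligand, at 111 CPM on average for B6 CD4+, 0.879 for B6 CD8+, 89.0 for CD8.1 and 1.37 for CD8.2 T cells. It was followed by *St8sia6* (0.645), *Tnfrsf4* (0.701), *Ly6c1* (0.740) and *Ptgir* (0.748). For *Runx3* the closest was *Hdac7* (0.101), which encodes a histone deacetylase of class IIa, at 102, 202, 93.0 and 136 CPM in the same order of groups, followed by *Acaca* (0.113), *Gatad2a* (0.133), *Rbm19* (0.133) and *Larp1* (0.140). For *Gata3* they were *Bex3* (0.0872), *Fkbp1a* (0.0915), *Fth1* (0.0929), *Zfp36* (0.0951) and *Cd151* (0.0999). The difference is smaller for genes that vary little, so values compare only within the list of 1 factor. With a prior count of 0.5 in place of 2 in log2 CPM, *Chdh* took the place of *Ptgir* and the other 2 lists held the same genes.

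Markers of other cells were at low but unequal levels. The 5 B cell markers summed to 66.2 to 83.0 CPM for B6 CD4+, 56.5 to 69.1 for B6 CD8+, 92.8 to 143 for CD8.1 and 66.9 to 117 for CD8.2 T cells. The 5 myeloid markers summed to 3.77 to 6.97, 3.603 to 5.82, 14.3 to 17.8 and 8.37 to 19.9 CPM. Of the NKT cell markers *Zbtb16* and *Il4* were at 0 in all B6 samples, and the 4 markers summed to at most 3.98 CPM in any sample. The part of these cells in the levels of the factors was not tested.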

How the data were processed

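The authors sequenced paired reads from low-input libraries, aligned them to mm10 with STAR and, by their methods, counted genes with RSEM, and the deposited values are raw counts per gene, as whole numbers. The column names speak of STAR counts, so which program made these values, and how it treated overlapping genes, is not settled. Versions, annotation release and use of strand in counting are not given in the sources used here. Gene positions and exon lengths came from GENCODE M21 (GRCm38), which has 99.5% of the table's gene identifiers without and 88.2% with their version (*Runx1* is among those that differ).

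Groups followed the sample labels. All 12 samples entered 1 model per gene in edgeR 4.0.16 under R 4.3.3 (TMM, filterByExpr, glmQLFit, glmQLFTest), with 7 comparisons. The comparison of helper with cytotoxic cells was tested on simulated counts. The 10 factors and the gene lists were chosen with earlier results of these data known. From the lists, the text names factors called in both strains, the 3 largest changes in each direction per list, marker genes, and the 5 genes most like 3 of the factors. Alternatives were DESeq2 1.42.0, limma-voom (limma 3.58.1), other filters, only the groups compared, the DEG definition, the replicate number as a block and each sample left out. Same-numbered B6 CD4+ and CD8+ samples deviated together (correlations 0.126 to 0.257), and same-numbered CD8Dual samples were at −0.0039 to 0.119. Samples of different strains reached values of similar size, such as 0.170 for B6 CD8 replicate 1 with CD8.2 replicate 3. These correlations thus cannot settle whether the numbers pair the samples, and the labels give only a replicate number. Motifs were searched in RefSeq promoters, and figures drawn with matplotlib 3.10.9.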

Additional observations from a re-analysis of the deposited data

Results flagged for a closer look

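The change from cytotoxic to helper cells differed between the strains, by edgeR's test of the interaction, for *Runx2* (2.77 on the log2 scale). It also differed for 7 of the 30 tested marker genes read beside the factors, 6 with a positive and 1 with a negative difference, where 1.58% and 0.29% of all tested genes were called. These were the co-receptor genes *Cd4* (−6.93), *Cd8a* (7.31) and *Cd8b1* (2.70), where the *Cd4* locus is altered by design, the memory and activation markers *Cd44* (0.92), *Cxcr3* (1.51) and *Il2rb* (1.93), and *Ikzf2* (2.65), a marker of regulatory T cells.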

How the results depend on the processing

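The 7 factors called within both strains kept their direction and call under all 19 alternatives at an adjusted P under 0.05, as did *Runx2* in the comparisons between strains. The study's DEG definition, which adds a limit on the fold, lowered the number of factors called to 2 in B6 mice, 1 in CD8Dual mice, 0 for CD8.1 against B6 CD4, 0 for CD8.2 against B6 CD8, 1 for CD8.1 against B6 CD8 and 2 for CD8.2 against B6 CD4, and the numbers of all genes from 3030, 3771, 1674, 1042, 5131 and 3525 to 431, 435, 80, 76, 532 and 358, and from 245 to 152 for the difference between the strains. Without the filter on low counts there were 2 factors for CD8.1 against B6 CD4, 5 for CD8.2 against B6 CD8 (1593 genes) and 2 for the difference between the strains (620 genes). With only the groups compared there were 6 factors (2515 genes) for CD8.2 against B6 CD8 and 674 genes for CD8.1 against B6 CD4, and DESeq2 gave 2 factors (410 genes) for the difference between the strains. For CD8.2 against B6 CD4 the 6 factors became 8 without the filter and with limma-voom. They became 9 with only the groups compared and with DESeq2, and 7 with the replicate block. The cause was not tested. With 1 sample left out, the factors called numbered 7 to 8 in B6 mice, 7 to 8 in CD8Dual mice, 1 to 4 for CD8.1 against B6 CD4, 1 to 5 for CD8.2 against B6 CD8, 8 to 8 for CD8.1 against B6 CD8, 5 to 9 for CD8.2 against B6 CD4 and 1 to 3 for the difference between the strains. All genes called numbered 2418 to 3748, 2632 to 5013, 765 to 2958, 431 to 1913, 4106 to 5757, 2491 to 4324 and 165 to 1356 in that order, each highest without CD8.1 replicate 1. Without CD8.2 replicate 3 the 1042 genes for CD8.2 against B6 CD8 became 440.

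Signs turned only for differences near 0 that were never called. *Myb* in CD8Dual mice (−0.0061) became 0.00098 with DESeq2 size factors, 0.0099 with a mean of at least 1 CPM, 0.0038 with only the groups compared and 0.00063 with DESeq2, and ranged from −0.12 to 0.059 with a sample left out. For CD8.1 against B6 CD4, *Runx1* became −0.0056 without the filter and −0.0030 with only the groups compared. With a sample left out it ranged from −0.11 to 0.033, *Zbtb7b* from −0.14 to 0.11, *Zbtb7a* from −0.047 to 0.20 and *Patz1* from −0.11 to 0.016. The replicate block changed 1 call of a factor, *Myb* in CD8.2 against B6 CD4 (0.47 with the replicate block). The block moved the genes called from 3030 to 3194 in B6 mice and from 3771 to 4101 in CD8Dual mice. Depth limits the low values most, of *Zbtb7b* in cytotoxic cells and *Runx2* in B6 CD4+ T cells.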
